A study of Mus musculus with 12 samples.

Results

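Integrins, laminins and the other structural genes of the basement membrane were examined as a set of 37 mouse genes, chosen by name: 12 integrin alpha chains, 8 integrin beta chains, 5 laminin alpha, 3 laminin beta and 2 laminin gamma chains, 2 nidogens, the proteoglycans Hspg2 and Agrn, and the matrix proteins Fn1, Vtn and Sparc. The rule used gene names and no measured value, and the set was drawn up with earlier results of these data known. All 37 were found among the 54446 genes of the deposited table, each under a single gene identifier.

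The libraries were poly(A) RNA-seq of E14, an established mouse embryonic stem cell line. The 4 groups of 3 libraries were undifferentiated mouse embryonic stem cells (mESC) and 3 populations that were isolated after differentiation by flow sorting on reporter signal: T+, SOX17+/T+ and SOX17+. T (brachyury) is a transcription factor of the primitive streak and early mesoderm, and SOX17 is a transcription factor of the endoderm. The labels put the stem cell cultures on gelatin with irradiated primary mouse embryonic fibroblasts (feeder cells), serum and LIF, and they record no genetic or drug treatment that differs between groups. The sources used here do not give the differentiation protocol, its length or the design of the reporters. They also do not state whether the undifferentiated cells carry the reporters or were sorted. The labels do not tie replicates to separate cultures, and the p-values therefore rest on a spread that may be technical.

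Integrins are cell surface receptors made of an alpha and a beta chain, which bind matrix outside the cell and, through talin and kindlin, actin inside it. Laminins are trimers of an alpha, a beta and a gamma chain that polymerise into a sheet beneath epithelia, and nidogens and the heparan sulphate proteoglycans perlecan (Hspg2) and agrin (Agrn) tie that sheet to collagen IV. In the gastrulating embryo, cells of the epiblast leave the epithelium through a breach in this sheet at the primitive streak, and the endoderm and mesoderm that form lie on and secrete matrix of their own.

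The 7 genes of the set that differed by at least 2-fold between SOX17+ and T+ cells (described below) are those for which an upstream sequence helps to place the gene. RefSeq promoters (GRCm38.p6) were given for 25 of the 37 members and for 5 of these 7. For 3 of the 5, the stretch of the RefSeq promoter that lies outside the exons GENCODE annotates for the gene is shown. Itga3 lies at chr11:95076802-95076964 on the minus strand and Lamb3 at chr1:193301744-193301992 on the plus strand, and both were higher in SOX17+ cells. Itga8 lies at chr2:12301945-12302194 on the minus strand and was lower in SOX17+ cells. They read 5′ to 3′, with capitals for matches to 5 motifs on either strand. The T-box motif searched was AGGTGT and the SOX motif was AACAAT. The GATA motif was GATAA, the TATA box was TATAAA and the SP1 motif was GGGCGG.
Itga3: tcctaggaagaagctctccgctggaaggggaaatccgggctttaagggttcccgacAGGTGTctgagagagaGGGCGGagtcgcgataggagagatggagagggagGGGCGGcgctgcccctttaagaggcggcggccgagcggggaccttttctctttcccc
Lamb3: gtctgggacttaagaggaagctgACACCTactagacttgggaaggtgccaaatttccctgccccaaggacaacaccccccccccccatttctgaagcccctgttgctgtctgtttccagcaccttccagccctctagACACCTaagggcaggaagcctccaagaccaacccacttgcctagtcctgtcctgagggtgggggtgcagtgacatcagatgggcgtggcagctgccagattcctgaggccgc
Itga8: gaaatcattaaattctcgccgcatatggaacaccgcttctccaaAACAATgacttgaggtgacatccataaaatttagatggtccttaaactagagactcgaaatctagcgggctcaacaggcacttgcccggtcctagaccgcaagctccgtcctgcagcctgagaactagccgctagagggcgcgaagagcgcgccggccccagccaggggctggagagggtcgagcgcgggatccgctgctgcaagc
The printed Itga3 stretch of 163 bases held 1 T-box and 2 SP1 matches. The Lamb3 stretch of 249 bases held 2 T-box matches and the Itga8 stretch of 250 bases held 1 SOX match, and no matches overlapped. Over windows of 250 bases before the start, 11.8% of the 32851 mouse promoters held the T-box letters, 9.42% the SOX letters, 22.6% the GATA letters, 12.4% the TATA letters and 32.7% the SP1 letters. Of the 29 promoters listed for the members, 4 held the T-box, 2 the SOX, 2 the GATA, 1 the TATA and 12 the SP1 letters. A match is a description of letters and not of a bound site. The Lamb3 stretch lies 94295 bases inside the gene model of the deposited table, at the start of a shorter annotated transcript.

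Levels are given in TPM, a unit of transcript abundance that divides by transcript length, so that genes can be set side by side. Libraries of a group correlated at a Pearson r of 0.995 to 0.997 over genes. T stood at 92.1 to 158 TPM in T+ libraries, 31.7 to 61.5 in SOX17+/T+ and 1.86 to 2.84 in SOX17+. Sox17 stood at 7.96 to 12.9, 123 to 148 and 211 to 244. Both reporter genes were under 1 TPM in every mESC library. The summed level of 12 definitive endoderm markers was 559 to 709 TPM in T+, 2098 to 2330.1 in SOX17+/T+ and 2888 to 3178 in SOX17+ libraries. Krt8 and Krt18 were the largest parts in SOX17+ libraries, at 650 to 683 and 801 to 843 TPM. In the test described below, 9 of the 12 rose and 2 fell from T+ to SOX17+ cells (all genes: 25.4% and 29%). Cxcr4 ran the other way, at 61.2 to 69.5 TPM in T+ and 34.2 to 42.6 in SOX17+ libraries, as did Gsc at lower levels. The summed level of 10 mesoderm and streak markers was 1174 to 1298 TPM in T+, 624 to 715 in SOX17+/T+ and 304 to 328 in SOX17+ libraries. That of 8 pluripotency markers was 5687 to 5807 in mESC against at most 133 in any sorted library. The mESC libraries held 14 of 14 feeder fibroblast markers, at a sum of 2695 to 3353 TPM, against 298 to 325 in T+, 234 to 262 in SOX17+/T+ and 201 to 212 in SOX17+ libraries. In the sorted groups Fbln1, which is also a basement membrane protein, made up most of the sum, 9, 8 and 8 of the 14 reached a mean of 1 TPM, and S100a4, Lum, Dcn and Fap were at or near 0.

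Of the 37 members, 31 reached 1 TPM in at least 3 of the 12 libraries and were tested, and 26 reached a group mean of 5 TPM somewhere. The 6 that were not tested were Itga2, Itga10, Itgb2, Itgb6, Lama3 and Lamc3. Another 5 members, Itga1, Itga7, Itga11, Itgb7 and Lama2, reached 1 TPM in mESC libraries alone and so entered the test through that group. Itga9, Lamb3 and Nid2 overlap genes on the opposite strand (Gm10157, G0s2 and Rtraf, at means of 38.2, 5.18 and 194 TPM over all libraries). The library kit keeps strand, but whether quantification used it is not stated, so reads of these pairs may be mixed. Levels ran over a wide range: Fn1, fibronectin, had a mean of 865 ± 81.1 TPM (SD, n = 3) in T+ cells. Fn1 and Sparc together held 45.2 ± 1.57% of the summed level of all 37 members in mESC and 52.8 ± 1.66% in SOX17+/T+ cells. The highest group mean was in mESC for 22 members, in SOX17+ for 7, in T+ for 6 and in SOX17+/T+ for 2.

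**Figure D1:**
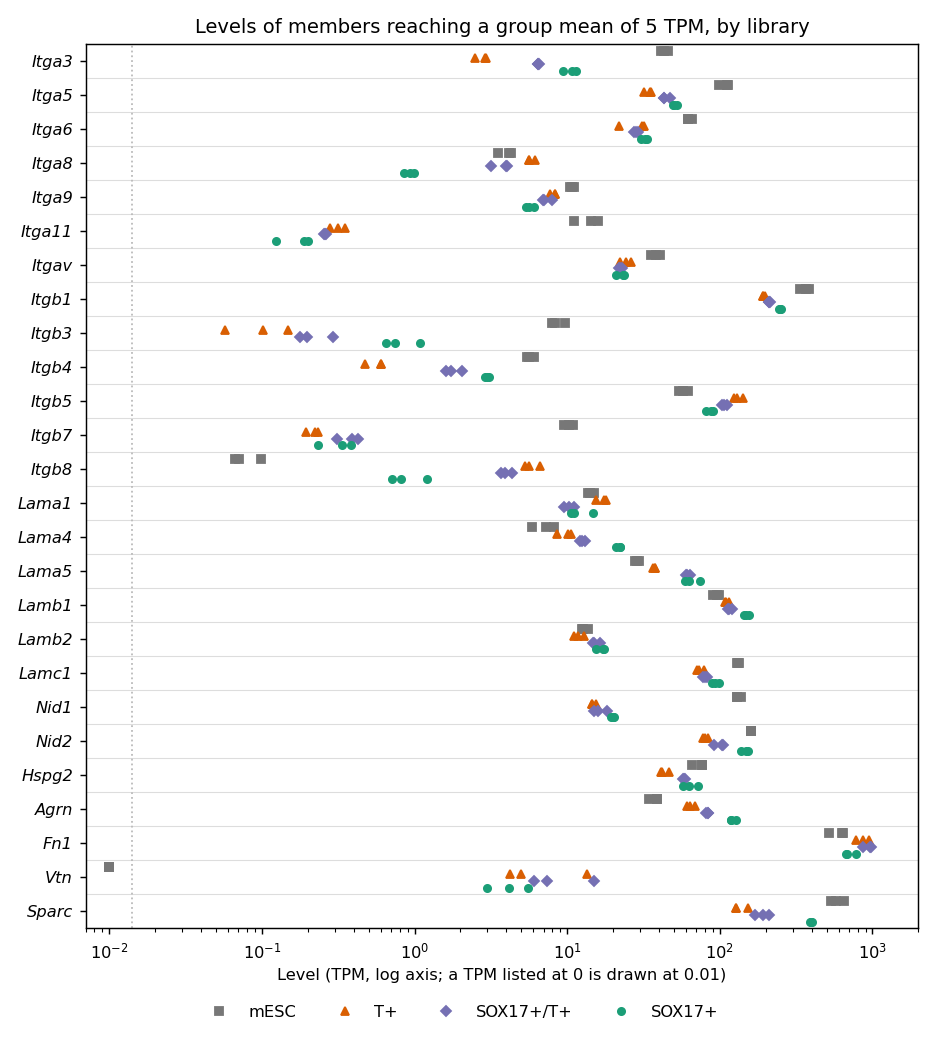
Level in each library of the 26 members that reached a group mean of 5 TPM (log axis, TPM; squares mESC, triangles T+, diamonds SOX17+/T+, circles SOX17+; left of the dotted line, the mESC libraries of Vtn, listed at 0, are drawn at 0.01). Fn1, Sparc and Itgb1 lie at the right in every group, and Itga11, Itgb7 and Nid1 have mESC squares far to the right of the sorted groups.

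Between SOX17+ and T+ cells, 16 of the 31 tested members rose in SOX17+ cells, 8 fell and 7 did not pass the test (limma on log2(TPM + 1), Benjamini-Hochberg over all 16097 genes tested). Over all genes tested, 25.4% rose and 29% fell. The median log2 difference of the members was 0.32, against -0.03 over all genes. At least 2-fold, 5 members rose (Itga3, Itgb4, Lama4, Lamb3 and Sparc) and 2 fell (Itga8 and Itgb8), against 4.95% and 3.7% of all genes. On the matrix side, all 3 laminin beta chains, both nidogens, both proteoglycans and Sparc rose, as did Lamc1 and, of the 4 laminin alpha chains tested, Lama4 and Lama5. Lama1, Lama2 and Fn1 fell. Among receptors, 5 rose (Itga3, Itga5, Itgb1, Itgb3 and Itgb4) and 5 fell (Itga1, Itga8, Itga9, Itgb5 and Itgb8). In bulk samples, fewer cells of a type and less RNA per cell cannot be told apart.

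Itga3 (chr11:95044474-95076801, minus strand) encodes an alpha chain that pairs with Itgb1 to bind laminin. It was at 2.50, 2.92 and 2.90 TPM in the T+ libraries, 6.45, 6.40 and 6.51 in SOX17+/T+ and 10.7, 9.42 and 11.5 in SOX17+. The 3 groups did not overlap, and of these groups levels were highest in SOX17+ cells. The log2 difference was 1.61 ± 0.07, adjusted p = 1.1e-09 between SOX17+ and T+, and 0.63 ± 0.07, adjusted p = 2.3e-05 between SOX17+ and SOX17+/T+.

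Itgb4 (chr11:115974709-116008412, plus strand), the beta chain that pairs with Itga6 in the hemidesmosomes of epithelia, ran the same way at a lower level. It stood at 0.472, 0.601 and 0.606 TPM in T+, 1.74, 2.06 and 1.61 in SOX17+/T+ and 3.06, 2.90 and 2.98 in SOX17+ libraries, again without overlap between groups. The log2 difference between SOX17+ and T+ was 1.35 ± 0.08, adjusted p = 1.1e-08, on a scale that understates the change of genes near 1 TPM; with a pseudocount of 0.1 in place of 1 it was 2.23. Its partner Itga6 did not pass the test: 28.2 TPM in T+, 28.2 in SOX17+/T+ and 32.1 in SOX17+ cells, a log2 difference of 0.20 ± 0.11, adjusted p = 0.14.

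The receptor chains that fell were led by a pair of low-level genes. Itga8 (chr2:12106632-12301922, minus strand), an alpha chain whose receptor binds nephronectin and fibronectin, was at 6.19, 5.66 and 5.60 TPM in T+, 4.01, 3.14 and 3.98 in SOX17+/T+ and 0.933, 0.853 and 0.988 in SOX17+ libraries. All SOX17+ libraries lay below all others of the sorted groups, with a log2 difference of -1.82 ± 0.09, adjusted p = 2.5e-09 from T+ and -1.29 ± 0.09, adjusted p = 3e-07 from SOX17+/T+. Itgb8 (chr12:119158022-119238802, minus strand), whose product pairs with Itgav to activate latent TGF-beta, was at 6.65, 5.28 and 5.59 TPM in T+, 3.89, 3.70 and 4.33 in SOX17+/T+ and 0.816, 0.716 and 1.20 in SOX17+ libraries. Of the sorted groups it too was lowest in SOX17+ cells, by a log2 difference of -1.84 ± 0.10, adjusted p = 7.5e-09 from T+ and -1.39 ± 0.10, adjusted p = 4.8e-07 from SOX17+/T+. Itgb5, the vitronectin receptor beta chain, was far more abundant and fell less: 129, 143 and 124 TPM in T+, 106, 112 and 103 in SOX17+/T+ and 90.3, 87.7 and 81.6 in SOX17+, a log2 difference of -0.60 ± 0.06, adjusted p = 2.4e-06. The 3 groups of Itgb5 did not overlap, with T+ cells highest.

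**Figure D2:**
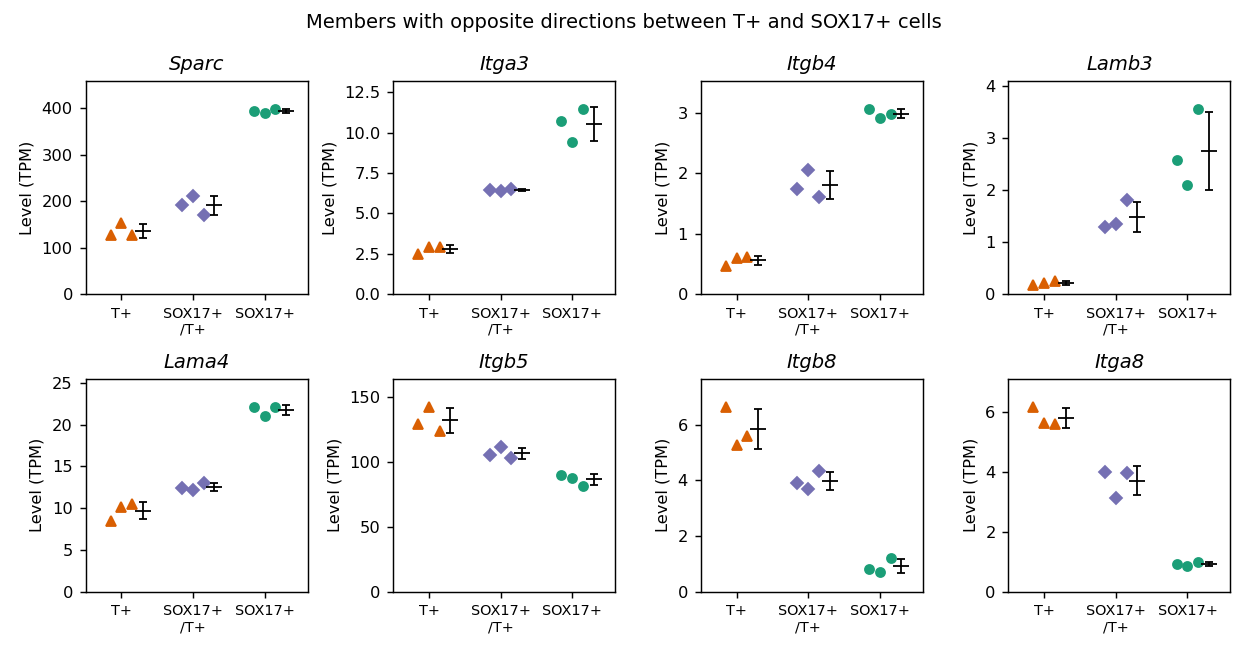
Level in TPM (linear axes from 0, different for each gene) of 8 members in the 3 sorted groups; points are libraries, and the horizontal mark and bar beside them are the group mean and SD. Sparc, Itga3, Itgb4, Lamb3 and Lama4 climb from T+ to SOX17+, and Itgb5, Itgb8 and Itga8 descend, for instance from 5.84 to 0.911 TPM for Itgb8.

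Itgb1 rose and Itgb5 fell from T+ to SOX17+ cells, and the makeup of the beta chain pool differed between them at similar sums (333 ± 11.6 TPM in T+, 325 ± 6.33 in SOX17+/T+ and 339.7 ± 2.33 in SOX17+, SD, n = 3). Itgb1, the partner of most alpha chains, held 58.2 ± 1.34% of beta chain transcripts in T+, 65.2 ± 0.616% in SOX17+/T+ and 73.0 ± 1.14% in SOX17+ cells. Itgb5 held 39.7 ± 1.46%, 32.8 ± 0.707% and 25.5 ± 1.31%. Of alpha chain transcripts, Itga5, the fibronectin receptor chain, was the largest part in every group, with 32.1 ± 2.16% in T+ and 40.3 ± 1.25% in SOX17+ cells. Itgav, which pairs with several beta chains to bind RGD ligands, held 22.9 ± 2.51% and 18.0 ± 0.509%, and its level did not pass the test between any pair of sorted groups. These shares are descriptions and were not tested.

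The remaining integrin chains differed less between sorted groups or were low. Itga5 rose from 33.9 ± 1.79 to 50.4 ± 1.51 TPM and Itgb1 from 194 ± 2.55 to 248 ± 4.20 TPM between T+ and SOX17+ cells. Itga9, a receptor chain for tenascin and VCAM1, fell by 0.45 on the log2 scale, from 8.12 ± 0.337 to 5.69 ± 0.390 TPM. Itgb3, the platelet and vitronectin receptor chain, rose from 0.102 to 0.826 TPM, a log2 difference of 0.72 ± 0.10 that was 2.19 with a pseudocount of 0.1. Itga1, a collagen receptor chain, fell from 0.572 to 0.184 TPM (-1.25 on the log2 scale with a pseudocount of 0.1, -0.41 with 1), but it overlaps Pelo and Gm49395 on the same strand, so its reads can be split between genes and the value is uncertain. Itga4, Itga6, Itga7, Itga11, Itgav and Itgb7 did not pass the test between SOX17+ and T+ cells. Itga4, a receptor chain for fibronectin and VCAM1, was at 1.67 TPM in T+, 1.36 in SOX17+/T+ and 1.98 in SOX17+ cells and rose between the last pair (0.34 ± 0.08, adjusted p = 0.007). Of the untested chains, Itga2 had means of 0.0240, 0.10 and 0.446 TPM in T+, SOX17+/T+ and SOX17+ cells, and Itga10, Itgb2 and Itgb6 reached at most 0.0935, 0.192 and 0.00894 TPM in a sorted group.

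Laminin chains differed by chain. Lama4 (chr10:38965515-39110188, plus strand), a chain of vascular basement membranes, was at 8.52, 10.1 and 10.5 TPM in T+, 12.5, 12.1 and 13.0 in SOX17+/T+ and 22.2, 21.0 and 22.1 in SOX17+ libraries. SOX17+ cells stood apart from both other groups, with a log2 difference of 1.09 ± 0.10, adjusted p = 6.6e-07 from T+ and 0.75 ± 0.10, adjusted p = 5.5e-05 from SOX17+/T+. The smaller difference between SOX17+/T+ and T+ (0.34 ± 0.10, adjusted p = 0.019) lost its call without T+ replicate 1 or SOX17+/T+ replicate 3 (highest adjusted p = 0.0844). Lama5, the broadly epithelial alpha chain, was at 36.8, 37.4 and 37.9 TPM in T+, 64.1, 59.7 and 60.9 in SOX17+/T+ and 74.6, 58.9 and 63.0 in SOX17+ libraries. It was higher in SOX17+/T+ than in T+ cells (log2 difference 0.71 ± 0.07, adjusted p = 7e-06), and SOX17+ and SOX17+/T+ cells overlapped.

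Lama1, the laminin alpha chain of the earliest embryonic basement membranes, ran the other way. It stood at 18.0, 15.5 and 17.5 TPM in T+, 11.1, 9.55 and 10.4 in SOX17+/T+ and 14.8, 10.5 and 11 in SOX17+ libraries, and fell by 0.47 on the log2 scale between T+ and SOX17+ (SE 0.11, adjusted p = 0.002). Of all laminin alpha transcripts, Lama1 held 26.3 ± 1.89% in T+ and 12 ± 1.00% in SOX17+ cells. Lama4 held 15.0 ± 1.45% and 21.9 ± 1.85%, and Lama5 held 57.9 ± 1.01% and 65.4 ± 0.935%. Lama2, a chain of muscle laminin, was under 1 TPM in every sorted group mean, and its fall between T+ and SOX17+ (-0.23 ± 0.08, adjusted p = 0.022, or -0.71 with a pseudocount of 0.1) was lost without T+ replicate 3 or SOX17+ replicate 3 (highest adjusted p = 0.0814).

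Of the laminin beta and gamma chains among the 37, Lamb1 and Lamc1 supplied most transcripts, at 88.4 ± 0.412% and 99.99% of the respective sums in SOX17+ cells. Lamb1 rose from 111 ± 3.39 TPM in T+ to 149 ± 6.34 in SOX17+ cells, Lamc1 from 74.2 ± 3.72 to 93.1 ± 5.04 and Lamb2 from 11.9 ± 0.869 to 16.7 ± 1.11. Their log2 differences were 0.42 ± 0.04, adjusted p = 2.2e-06, 0.32 ± 0.05, adjusted p = 5.5e-05 and 0.45 ± 0.07, adjusted p = 9e-05. The ratio of summed laminin alpha to summed laminin gamma transcripts was 0.868 ± 0.0539 in T+, 1.06 ± 0.0360 in SOX17+/T+ and 1.07 ± 0.0614 in SOX17+ cells.

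Lamb3 (chr1:193207699-193343878, plus strand), a beta chain of epithelial laminin that assembles with Lama3, was low throughout, at 0.179, 0.217 and 0.258 TPM in T+, 1.29, 1.34 and 1.80 in SOX17+/T+ and 2.57, 2.09 and 3.55 in SOX17+ libraries. The groups did not overlap, and the log2 difference between SOX17+ and T+ was 1.60 ± 0.13, adjusted p = 3.4e-07, or 3.13 with a pseudocount of 0.1. Its partner Lama3, untested, had the same order of group means, at 0.0460, 0.0852 and 0.395 TPM in T+, SOX17+/T+ and SOX17+ cells. Lamc3, untested, stood at 0.256, 0.0815 and 0.0126 TPM.

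Sparc (chr11:55394500-55423183, minus strand), a secreted collagen-binding glycoprotein abundant in parietal endoderm, differed between all 3 sorted groups. It was at 127, 152 and 127 TPM in T+, 191, 211 and 169.7 in SOX17+/T+ and 394, 389 and 399 in SOX17+ libraries. No group overlapped another, and the log2 difference was 1.54 ± 0.09, adjusted p = 9e-08 between SOX17+ and T+ and 1.05 ± 0.09, adjusted p = 6.7e-06 between SOX17+ and SOX17+/T+. Agrn rose from 64.4 ± 4.09 TPM in T+ to 82.7 ± 1.87 in SOX17+/T+ and 121 ± 5.90 in SOX17+ cells. Nid2 rose from 80.7 ± 2.75 to 99.4 ± 6.89 and 146 ± 8.27. Their log2 differences between SOX17+ and T+ were 0.90 ± 0.06, adjusted p = 3.1e-08 and 0.85 ± 0.05, adjusted p = 1.8e-08. Hspg2 and Nid1 rose less, by 0.55 ± 0.08 and 0.40 ± 0.06 on the log2 scale. Fn1, at 945, 866 and 783 TPM in T+, 982, 963 and 865 in SOX17+/T+ and 780.2, 678 and 674 in SOX17+ libraries, was lowest of the sorted groups in SOX17+ cells. Its difference from T+ (-0.28 ± 0.10, adjusted p = 0.031) lost its call without any of 4 libraries (T+ replicate 1 or 2, SOX17+ replicate 2 or 3; highest adjusted p = 0.110). Vtn, vitronectin, had a coefficient of variation of 67.8% among T+ libraries (4.98, 4.25 and 13.5 TPM in T+ and 4.18, 3.00 and 5.51 in SOX17+) and did not pass the test. Its replicate 3 was the highest library in each sorted group (15.0 TPM in SOX17+/T+), and the main fit did not pair replicates.

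**Figure D3:**
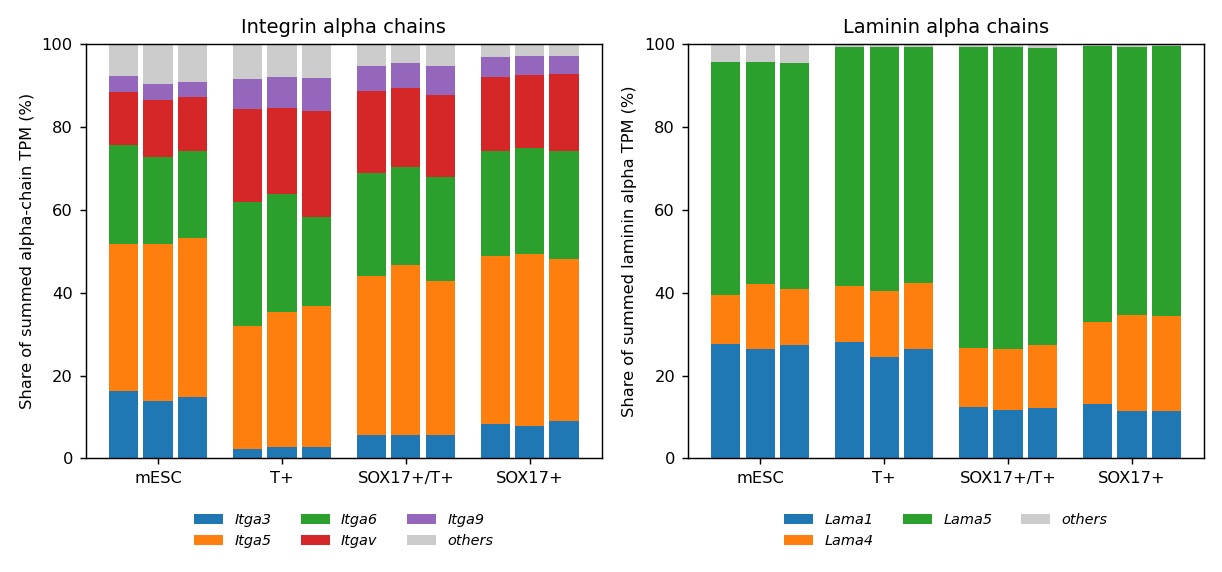
Share of each chain in the summed TPM of integrin alpha chains (left) and laminin alpha chains (right), in percent, with 1 stacked bar per library in each group. Itga3 has a thin band in T+ libraries (2.63% on average) and a wider one in SOX17+ libraries (8.42%), and Lama1 has a wider band in mESC and T+ than in the other groups.

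SOX17+/T+ cells, which were sorted as positive for both reporters, lay between the single-positive groups for most members. Against T+, 12 of 31 members rose and 5 fell (12.6% and 15.8% of all genes). Against SOX17+/T+, 14 rose in SOX17+ cells and 6 fell (19.8% and 16.8%). The SOX17+/T+ mean lay between the other group means for 24 of 31 members, against 62% of all genes tested. The 31 include the 5 members that reached 1 TPM in mESC libraries alone. Each library of T+ was below each of SOX17+/T+, and each of these below each of SOX17+, for 10 members (Itga3, Itga5, Itgb1, Itgb3, Itgb4, Lama4, Lamb3, Nid2, Agrn and Sparc; background 10.4%), and the reverse order held for 4 (Itga8, Itga11, Itgb5 and Itgb8; background 10.7%). Itga11, which entered the test through mESC libraries alone, stood at 0.316, 0.259 and 0.171 TPM in T+, SOX17+/T+ and SOX17+ cells. Its difference was not called between any pair of these groups. No member was called on the same side of both single-positive groups by limma, at an adjusted p under 0.05 in both comparisons (background 0.882% below both and 0.733% above both). Among the steps, the Itgb1 difference between SOX17+/T+ and T+ (0.13 ± 0.04, adjusted p = 0.026) was lost without T+ replicate 1 or 3 or SOX17+/T+ replicate 1 or 2, and the Itga5 difference between SOX17+ and SOX17+/T+ (0.17 ± 0.06, adjusted p = 0.037) without any of 5 libraries of those groups (all but SOX17+/T+ replicate 2).

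Against the midpoint of the log2 levels of T+ and SOX17+, SOX17+/T+ cells were higher in 4 members and lower in 3, with 24 not called (background 4.43% and 5.44%; the members' median was 0.01 and that of all genes -0.02). Itgb8 was 0.47 ± 0.09, adjusted p = 0.0063 above the midpoint and Lama5 0.31 ± 0.06, adjusted p = 0.006; both kept their call whichever library was left out. Itga8 (0.37 ± 0.08, adjusted p = 0.011), Lama2 (0.29 ± 0.07, adjusted p = 0.014), Lama1 (-0.43 ± 0.09, adjusted p = 0.01), Lamb1 (-0.15 ± 0.04, adjusted p = 0.023) and Itga4 (-0.26 ± 0.07, adjusted p = 0.043) lost theirs without a single library. This held for Itga8 without SOX17+/T+ replicate 1, Lama1 without SOX17+/T+ replicate 2, Lama2 without SOX17+/T+ replicate 3, Lamb1 without SOX17+/T+ replicate 2 or 3, and Itga4 without any of 9 libraries. With a pseudocount of 0.1 the distances of Itgb8, Itga8, Lama2 and Itga4 were 0.75, 0.62, 0.78 and -0.40, and that of Itga4 was no longer called. The count above the midpoint was 7 with that pseudocount. The count below it was 5 with a replicate block and 1 to 4 when single libraries were left out, with 1 without SOX17+/T+ replicate 2 or 3.

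Markers of other cell types moved with the same contrast. The summed level of 10 endothelial markers was 76.2 to 79.6 TPM in T+, 131 to 141 in SOX17+/T+ and 189.8 to 204 in SOX17+ libraries, with 4, 9 and 9 of 10 at a mean of 1 TPM or more and Emcn near 0 in all. Of the 9 measured, 7 rose and 1 fell from T+ to SOX17+ cells (all genes: 25.4% and 29%). Flt1 was the largest part in SOX17+ cells (11.2 TPM in T+, 86.7 in SOX17+). Egfl7 was at 34.6 and 34.9 TPM, and Kdr ran the other way (27.9 and 18.6). Of 9 extraembryonic endoderm markers, 4, 4 and 6 reached 1 TPM in T+, SOX17+/T+ and SOX17+ cells, at sums of 40.2 to 50.2, 53.0 to 57.0 and 177 to 185 TPM, most of it Pth1r and Ttr, with Afp and Apoa4 near 0. Of 8 primitive blood markers, 1, 5 and 8 reached 1 TPM, at sums of 3.08 to 4.19, 12.5 to 20.0 and 92.5 to 231 TPM. The 6 megakaryocyte markers summed to 0.509 to 0.607, 2.21 to 2.55 and 8.25 to 10.5 TPM, with 0, 1 and 1 at a mean of 1 TPM. Most of each sum was Itga2b, at means of 0.428, 2.07 and 8.54 TPM. The 8 leukocyte markers summed to 28.5 to 37.0, 24.0 to 35.3 and 18.0 to 24.6 TPM, most of it Cd68 (means of 30.8, 27.7 and 14.3 TPM). Laptm5 ran the other way, at means of 0.899, 2.51 and 6.01 TPM. From T+ to SOX17+ cells, 1 of the 5 leukocyte markers measured rose and 1 fell (all genes: 25.4% and 29%). Lama4, Sparc, Agrn, Nid2 and the stepwise rising receptors moved in the same direction as the endothelial, extraembryonic endoderm and blood sums; their part in the result was not tested.

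**Figure D4:**
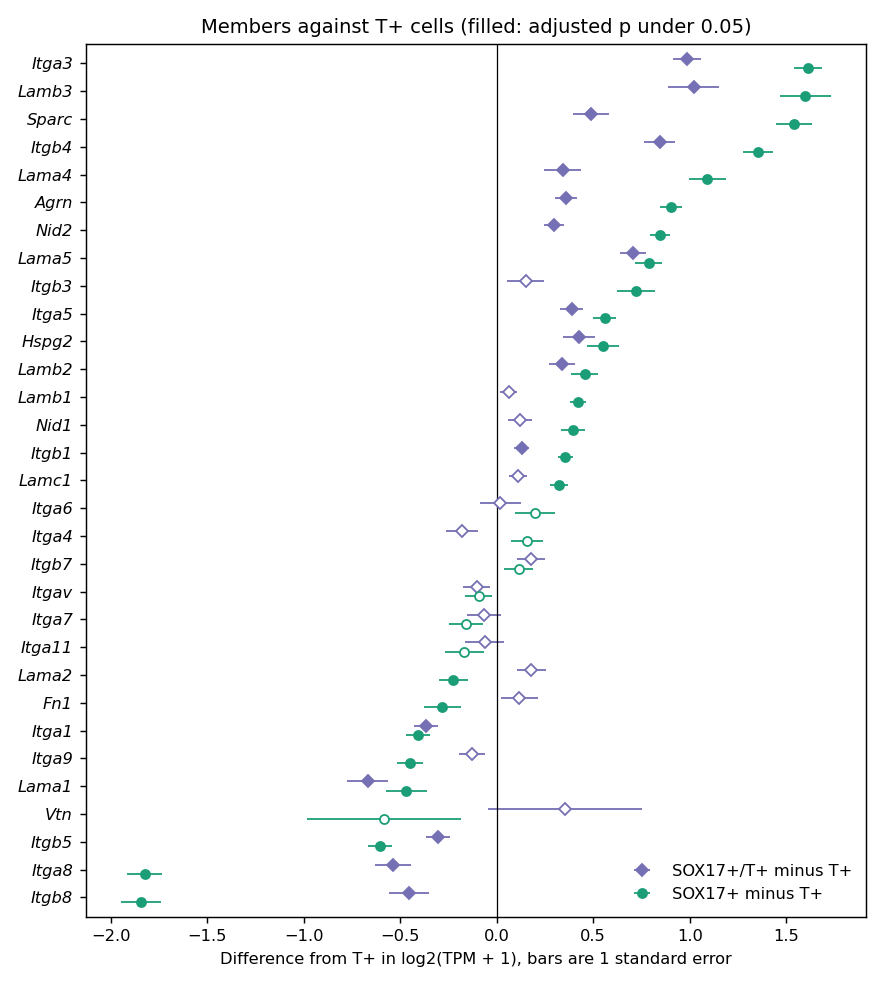
Difference from T+ cells in log2(TPM + 1) for the 31 tested members, for SOX17+/T+ (diamonds) and SOX17+ cells (circles), ordered by the second; bars are 1 standard error and filled symbols passed the test. Itga3, Lamb3 and Sparc lie furthest to the right, and Itga8 and Itgb8 furthest to the left.

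Set against undifferentiated cells, 8 of the 31 tested members passed the filter on low values through 1 side alone, which favours a difference from mESC in that direction. Itga1, Itga7, Itga11, Itgb7 and Lama2 reached 1 TPM in mESC libraries only, and Itgb8, Lamb3 and Vtn in sorted libraries only. Among the other 23, a count made after the data were seen, 8 rose and 13 fell in T+ cells (34.3% and 48.6% of all genes at 1 TPM on both sides), 7 and 14 in SOX17+/T+ cells (34% and 49.7%), and 8 and 13 in SOX17+ cells (34.9% and 49.2%). Of the 7 integrin alpha chains among them, 5 fell in T+, 5 in SOX17+/T+ and 6 in SOX17+ cells, while Lamb1 and Lamb2 rose in SOX17+ cells. With the 8 members included, 10 of 31 rose and 18 fell in T+ cells (34.5% and 49.5% of all genes), 10 and 19 in SOX17+/T+ cells (34.9% and 50.3%), and 11 and 18 in SOX17+ cells (35.4% and 50%). These comparisons share the mESC libraries, which also held the feeder fibroblast markers above and more of the leukocyte markers, at a sum of 110.3 to 123 TPM against at most 37.0 in a sorted library. Of those 8 markers, 5 reached a mean of 1 TPM in mESC, with Laptm5 the highest and Ptprc, the pan-leukocyte marker, at 0.136 to 0.199 TPM. The part of either list in the result was not tested. TPM also shifted as a whole: the median over all genes was -0.17, -0.19 and -0.18 for T+, SOX17+/T+ and SOX17+, and 41%, 40.9% and 41.5% of called genes were higher. Under quantile normalization those shares were 53.4%, 53.2% and 52.4%, and the members' counts were 11 and 17, 11 and 17, and 12 and 17.

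The members that fell furthest included 5 receptor chains, Nid1 and Sparc; the falls of Itga11, Itgb7 and Itga7, which entered the test through mESC alone, were favoured by that filter. Itga3 stood at 45.5, 41.3 and 43.2 TPM in mESC libraries and differed by -3.56 ± 0.07, adjusted p = 6.3e-14 in T+ and -1.94 ± 0.07, adjusted p = 2.1e-11 in SOX17+ cells, which leaves the SOX17+ level between those of T+ and mESC. Itga11, a collagen receptor chain of fibroblasts, was at 11, 15.8 and 14.4 TPM in mESC and at 0.316, 0.259 and 0.171 TPM in the sorted groups. Itgb7, a leukocyte chain, was at 10.2 ± 0.652 TPM in mESC and at most 0.375 in a sorted group. With a pseudocount of 0.1 the T+ differences of Itgb7, Itgb3 and Itga7 were -5.03, -5.46 and -4.14, against -3.21, -3.13 and -2.10 with 1. Itgb3 was at 8.69 ± 0.923 against at most 0.826, and Itga7, a muscle laminin receptor chain, at 3.88 ± 0.595 against at most 0.132. Nid1 was at 132 ± 4.82 TPM in mESC, 14.9 in T+ and 19.9 in SOX17+ cells. Nid2, the other nidogen, was at 159.6 ± 0.763, 80.7 and 146; the last difference from mESC (-0.13 ± 0.05, adjusted p = 0.032) changed sign under other scalings and lost its call without any 1 of the mESC libraries or SOX17+ replicate 3. The ratio of Nid2 to Nid1 was 1.21 ± 0.0441 in mESC and 5.42 ± 0.353, 6.09 ± 0.482 and 7.32 ± 0.408 in T+, SOX17+/T+ and SOX17+ cells.

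Sparc was at 535, 651 and 575 TPM in mESC and fell to 135 TPM in T+ (-2.11 ± 0.09, adjusted p = 1.1e-09) and less in SOX17+ cells (-0.57 ± 0.09, adjusted p = 0.00014). Summed integrin alpha transcripts were 289 ± 9.87 TPM in mESC and 106 ± 3.00, 115 ± 1.42 and 125 ± 5.28 in T+, SOX17+/T+ and SOX17+ cells. Collagen-binding alpha chains made up 5.61 ± 0.717% of the first and under 1% of the others.

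On the log2(TPM + 1) scale Vtn had the largest rise against mESC in each sorted group (2.94 ± 0.40, adjusted p = 4.9e-05 in T+, 3.30 ± 0.40, adjusted p = 2e-05 in SOX17+/T+ and 2.36 ± 0.40, adjusted p = 0.00026 in SOX17+ cells). It was listed at 0 in all 3 mESC libraries, at 4.98, 4.25 and 13.5 TPM in T+ and 7.33, 6.11 and 15.0 in SOX17+/T+ libraries, so no fold is given, and the size of the difference moves with the pseudocount (6.07, 6.47 and 5.39 with 0.1). Itgb8, Agrn, Lama4, Lama5, Lamb3 and Itgb5 were among the other rises; those of Vtn, Itgb8 and Lamb3, which passed the filter through sorted libraries alone, were favoured by it. Itgb8 was at 0.0981, 0.0708 and 0.0668 TPM in mESC and differed by 2.66 ± 0.10, adjusted p = 2.9e-11 in T+, 2.20 ± 0.10, adjusted p = 2e-10 in SOX17+/T+ and 0.82 ± 0.10, adjusted p = 6.1e-06 in SOX17+ cells; with a pseudocount of 0.1 these were 5.05, 4.51 and 2.48. Agrn differed by 0.78 ± 0.06, adjusted p = 2.9e-08 in T+ and 1.68 ± 0.06, adjusted p = 9.3e-12 in SOX17+ cells, and Lama4 by 0.40 ± 0.10, adjusted p = 0.0016 and 1.50 ± 0.10, adjusted p = 5.8e-09. Lama5 was 1.08 ± 0.07, adjusted p = 5.5e-09 higher in SOX17+/T+ and 1.16 ± 0.07, adjusted p = 2.5e-09 higher in SOX17+ cells. Lamb3 was 1.31 ± 0.13, adjusted p = 6.4e-07 (2.26 with a pseudocount of 0.1) higher in SOX17+ cells, and Itgb5 1.18 ± 0.06, adjusted p = 6.1e-10 higher in T+ cells. Itga8 was 0.46 ± 0.09, adjusted p = 0.00038 higher in T+ but lower in SOX17+ cells (-1.37 ± 0.09, adjusted p = 7.7e-09). Fn1 was 0.54 ± 0.10, adjusted p = 0.00039 higher in T+ cells. Among the 23 members with a mESC mean of at least 5 TPM, 13 had the same order of mESC replicates as the feeder marker sum (replicate 1 lowest and replicate 2 highest; background 14.5%), an order examined after its values were seen. It held for 8 of the 15 whose mESC mean was above every sorted mean and for 5 of the 8 whose mESC mean was not (Itgb5, Lama4, Lamb1, Lamb2 and Fn1). The background of 14.5% covers all genes with a mESC mean of at least 5 TPM and is not split in this way. All genes share the same 3 mESC libraries, so members are not separate observations of this order. The part of feeder cells in these levels was not tested.

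**Figure D5:**
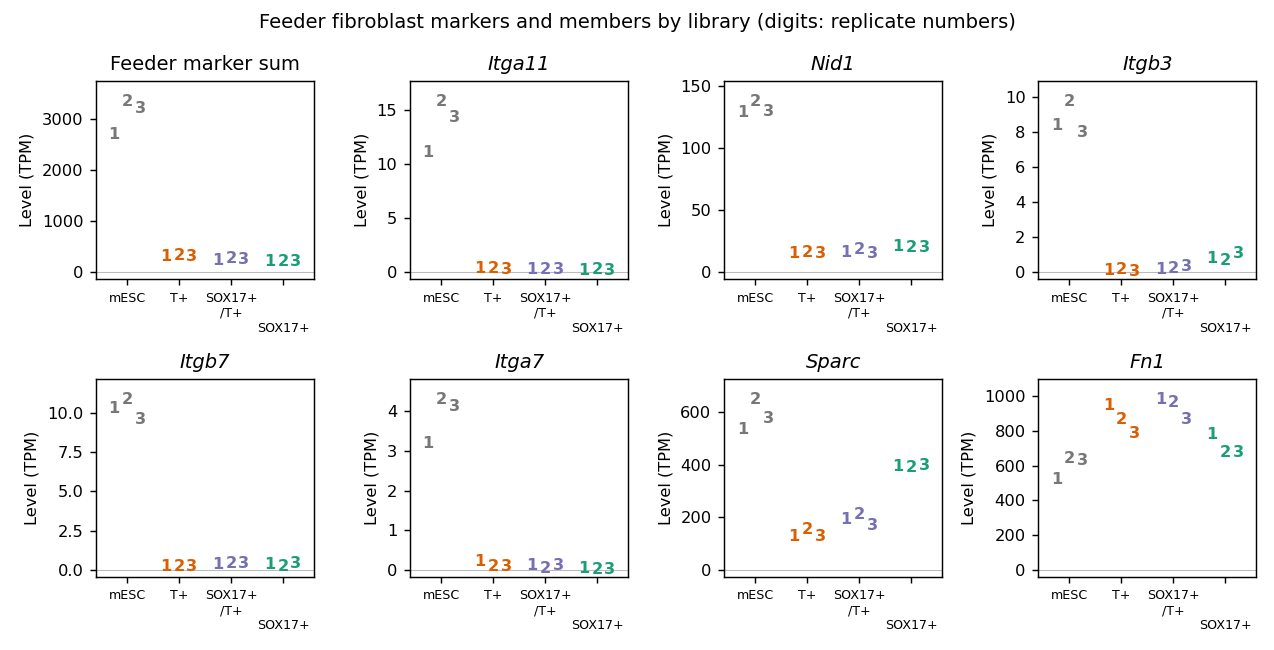
Summed feeder fibroblast markers and the level of 7 members in each library (TPM, linear axes; each digit is a library, numbered by replicate). The feeder sum is 2695 to 3353 TPM in mESC libraries; Nid1, Itga11, Itgb3, Itgb7 and Itga7 are also far higher in mESC than in the sorted groups, whereas Fn1 is not.

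The wider pathway was described with 9 lists of 102 genes, none of them among the 37. In SOX17+ against T+ cells, all 4 collagen IV chains measured rose (median log2 difference 1.14), led by Col4a1 (47.9 TPM in T+, 208 in SOX17+; 2.09 ± 0.10, adjusted p = 1e-08) and Col4a2 (43.9 and 159 TPM; 1.83 ± 0.11, adjusted p = 4.7e-08). Of 6 tetraspanins that associate with integrins, 5 rose and 1 fell, with Cd9 at 28.5 and 65.4 TPM (1.17 ± 0.04, adjusted p = 3.6e-11) and Cd82 next (0.98 ± 0.07, adjusted p = 1.2e-07). Of 20 adaptors that link integrin tails to actin, 10 rose and 3 fell. The kindlins Fermt3 (2.28 ± 0.16, adjusted p = 5.2e-08) and Fermt1 (1.63 ± 0.13, adjusted p = 2.7e-07) were the largest rises. Both were low genes, at means of 4.90 and 5.50 TPM in SOX17+ cells. Fermt2, the most abundant kindlin, stood at 56.5 TPM in T+ and 55.1 in SOX17+ cells. It did not pass the test (-0.04 ± 0.05, adjusted p = 0.54). Tns1, a tensin, was the largest fall (-1.03 ± 0.08, adjusted p = 2.4e-07). Of 8 laminin receptors other than integrins, 3 rose and 2 fell, led by Bcam, which binds the Lama5 chain (17 and 65.9 TPM; 1.89 ± 0.08, adjusted p = 3.5e-10). Itga2b, an integrin chain of platelets and early blood that is not among the 37, rose as well (2.73 ± 0.11, adjusted p = 2.3e-10).

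Matrix proteases and their inhibitors ran lower in SOX17+ cells, with 2 rises and 6 falls among 11 measured (median -0.66). Mmp11, a stromelysin, rose (1.87 ± 0.07, adjusted p = 2.4e-10), and the inhibitors Timp3 (-1.35 ± 0.10, adjusted p = 1e-07) and Timp1 (-1.02 ± 0.06, adjusted p = 1.1e-08) fell. Of 14 other RGD or matricellular ligands, 3 rose and 7 fell (median -0.27), with Thbs1 up (2.54 ± 0.13, adjusted p = 8.7e-09) and Thbs2 (-1.10 ± 0.09, adjusted p = 2.8e-07) and Smoc2 (-1.09 ± 0.19, adjusted p = 0.00038) down. Of 14 further basement membrane proteins measured, 6 rose and 5 fell (median 0.17), with Smoc2 counted in this list as well as among the ligands. Fras1 (1.71 ± 0.09, adjusted p = 2.8e-09) and Tinagl1 (1.25 ± 0.10, adjusted p = 3.4e-07) rose and Smoc1 (-2.43 ± 0.17, adjusted p = 2.4e-07) fell. Of 15 crosslinking and folding enzymes, 7 rose and 4 fell (median 0.00), with Loxl2 (1.26 ± 0.14, adjusted p = 1.7e-05), Pxdn (0.95 ± 0.07, adjusted p = 1.3e-07), which crosslinks collagen IV, and P4ha1 (0.93 ± 0.13, adjusted p = 0.0001) among the rises. These counts stand beside the background of 25.4% higher and 29% lower given above.

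Against mESC, 1 of 20 adaptors rose and 15 fell in T+ cells (median -1.07), and 4 rose and 13 fell in SOX17+ cells. Over all genes tested, 34.5% were higher and 49.5% lower in T+, and 35.4% and 50% in SOX17+ cells. RGD or matricellular ligands had 2 rises and 10 falls of 14 in T+ and 2 and 12 in SOX17+ cells, led in T+ by Thbs1 (691 TPM in mESC, 1.16 in T+), Spp1 (593 and 1.01) and Tnc (411 and 0.991). Collagen IV chains rose in SOX17+ cells for 4 of 4, with Col4a6 3.34 ± 0.06, adjusted p = 2.8e-14. The feeder markers stood at the sums given above, and their part in these counts was not tested.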

How the data were processed

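Levels were taken from the authors' deposited table of StringTie TPM, a per-length and per-million unit (54480 rows, 282 empty cells set to 0). Per the submitters' processing notes, reads were handled with cutadapt, STAR and StringTie on mm10/GRCm38 with no version stated there. The labels' protocols give a stranded poly(A) library and paired-end sequencing. TPM keeps no depth, so counting error is unknown.

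The 37 members were matched by symbol. From the deposited TPM, log2(TPM + 1) values were computed and fitted with limma 3.58.1 (R 4.3.3; lmFit, eBayes with trend and robust) over all 12 libraries with 1 mean per group. Genes at 1 TPM or more in at least 3 libraries were tested (16097), p-values were Benjamini-Hochberg adjusted over all of them, with calls at adjusted p under 0.05. The fit was tested on simulated data. Log2 differences are on the log2(TPM + 1) scale and understate changes of low genes.

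The members, the 9 pathway lists, the 9 marker lists and the tests were chosen with earlier results of these data known. Values in every library are given for members at least 2-fold apart between sorted groups and with a group mean of at least 5 TPM. They are also given for others where a result turns on them. Against mESC, the 6 largest called rises and falls were named, and of each pathway list up to 3 called genes. Fermt2 was named in addition for its level.

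Replicate numbers are shared between groups in the labels. Same-numbered T+ and SOX17+/T+ libraries correlated at 0.149 to 0.242 in their deviations from the group means, so their numbers pair them by this check; in the other pairs of groups not every correlation was over 0.1. Promoters came from RefSeq (GRCm38.p6), and bases within GENCODE M21 exons of the gene were left out. No column of the table lacked a sample. Tables and figures were made with pandas 2.3.3, numpy 2.4.6 and matplotlib 3.10.9. 1 gene of the pathway lists is not reported here.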

Additional observations from a re-analysis of the deposited data

How the results depend on the processing

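Of 154 single-gene results, 137 kept direction and call in every alternative run (a pseudocount of 0.1, filters of none and 5 TPM, 2 other scalings, only the groups compared, replicate blocks, plain eBayes, and leaving out each library), 15 lost the call in some alternative and 2 reversed; all 51 results of at least 2-fold kept direction and call. Nid2 between SOX17+ and mESC went from -0.13 to 0.037 after median-of-ratios scaling and to 0.14 under quantile normalization, and Hspg2 between SOX17+/T+ and mESC from -0.31 to 0.033 with quantile normalization; the cause was not tested. Of 14 counts of members, 12 stayed within 1.5 times. This includes the counts against mESC over only the members at 1 TPM on both sides, an alternative chosen after seeing the data. The count above the midpoint was 7 with a pseudocount of 0.1, and that below it was 5 with a replicate block on all 12 libraries, 5 with a replicate block on the sorted groups alone, and 1 to 4 when single libraries were left out. In the pairing check, the replicate block changed no other count of members by more than 1.5 times and ended the call of Itga4 between SOX17+ and mESC. Quantile normalization moved the share of called genes above the midpoint from 44.9% to 55.9%. Without some single library, 14 single-gene results lost their call. With a pseudocount of 0.1, 38 log2 differences were over 1.5 times larger, all of genes with a low level in some group. Depth is unknown from TPM, so the counting error of every member is unknown, that of low members (Itga1, Itga7, Itgb3, Lama2, Lamb3) included.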
